A study of Mus musculus with 22 samples.

Results

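The histone genes of the mouse lumbar spinal cord were followed in RNA sequencing of 22 wild-type C57BL6J mice aged 12 to 14 weeks, all with joint pain induced by 1 mg of sodium iodoacetate (MIA) in the knee. SAFit2, an inhibitor of the stress regulator FKBP51, was given at 100 mg/kg in a slow-release phospholipid gel. Early treatment was placed on days -3 and 4 around MIA and late treatment on days 20 and 27, as the series' design text has it (a second label gives day 3 for the first early injection). The cord (L4 to L6) of every mouse was taken on day 30, from 6 Early Vehicle and 5 Early SAFit2 mice and from 6 Late Vehicle and 5 Late SAFit2 mice. The paper states that the dorsal horn quadrant on the injured side was sequenced, and it describes the mice of this design as male. The Vehicle mice had the gel alone at the matching days. For the 5 Early SAFit2 mice the titles read SAFit1 and the treatment label SAFit2, and the latter was used. Early and late mice were labelled as separate batches, so timing and batch cannot be told apart.

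The members were chosen by name, from the older symbols Hist1h to Hist4h and H1f, H2af and H3f. The table uses current symbols, of which 7 match as they stand, so each row's identifier was matched to all its RefSeq names. This gave 43 histone genes of the 17306 genes measured. Of these, 32 are replication-dependent genes, including the transcribed pseudogenes H2af-ps2 and H2bu1-ps, and 11 are variants. A further 49 RefSeq genes with such names were not analysed here. In all, 40 members had a level of at least -1 log2 CPM, the log2 of library-scaled read counts, in at least 5 libraries and were tested, namely 29 replication-dependent genes and all 11 variants. H2bc11, H4c17 and H4c4 did not reach that level and held between 0 and 13 reads per library.

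DNA is wound around cores of the histones H2A, H2B, H3 and H4, and linker histone H1 sits where the strand enters and leaves. Replication-dependent histone genes lie in clusters, are copied into RNA mainly while a cell duplicates its DNA, and give mRNAs that end after a conserved stem-loop in place of a poly(A) tail. Variant genes are scattered, are used in resting cells as well, and give ordinary polyadenylated mRNAs. In adult spinal cord, where neurons no longer divide, variants are the main supply of new histone.

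The stem-loop is the feature that sets the mRNA classes apart and bears on whether a read is captured, so its forms are shown here. It was searched for on the sense strand of GENCODE M21 transcripts (GRCm38, the assembly also called mm10) as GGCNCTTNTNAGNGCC (any base at N, but C or T at the first and A or G at the last), a stem of 6 pairs around a loop of 4 bases. It was found in 23 of the 32 replication-dependent genes, in 1 of the 11 variants (H2ax) and in 27 of the 16718 genes with a transcript (0.161%). The longest transcripts of H2bc13 and H2bc15 (381 bases each) and of H2af-ps2 (339) are shorter than their RefSeq genes. A stem-loop missing there may be a limit of the annotation. In the 23 genes it began 21 to 58 bases after the stop codon. In 17 of the 24 members that hold it the 16 bases were identical, as in H1f2, and the other forms differed in the loop or in a pair of the stem, as H4c8, H4c9, H2ac20, H2bc12 and H2ax show. Capitals mark the stem-loop and lower case the 5 bases on either side.
H1f2: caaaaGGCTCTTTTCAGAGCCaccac
H2ac20: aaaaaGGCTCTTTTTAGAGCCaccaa
H2bc12: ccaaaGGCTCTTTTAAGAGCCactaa
H4c8: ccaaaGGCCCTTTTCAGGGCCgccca
H4c9: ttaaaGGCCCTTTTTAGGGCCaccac
H2ax: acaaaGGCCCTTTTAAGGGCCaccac
These lie on chromosome 13 at 23739512 to 23739527 (H1f2, plus strand), 22036300 to 22036315 (H2bc12, plus), 23531458 to 23531473 (H4c8, plus) and 22040966 to 22040981 (H4c9, minus), on chromosome 3 at 96220418 to 96220433 (H2ac20, minus) and on chromosome 9 at 44335240 to 44335255 (H2ax, plus). In 21 of the 23 replication-dependent genes the RefSeq gene ended 4 to 8 bases past the stem-loop, which is where the mature mRNA is cut. In GENCODE 12 of the 23 have a transcript that runs on for more than 100 bases, by up to 2010 in H2ac6. Counting any GENCODE transcript of a gene, the polyadenylation signal AATAAA stood in the last 100 bases in 9 replication-dependent genes and in 9 variants. For genes with short transcripts, such as H2bc13 and H2bc15 (381 bases) and H3f3c (411), a missing signal may be a limit of the annotation.

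Replication-dependent genes with that signal had the higher median level per gene. Over all 22 mice, the median was 2.29 log2 CPM for the 9 with the signal, against -0.71 for the 23 without it. The ranges overlapped (-1.44 to 4.42 and -2.275 to 4.92), and the highest gene, H2bc4, lacks the signal. These are levels per gene, not per length, and were not tested. Per kb of the longest transcript, H2bc4 (4.71), H2ac19 (4.00) and H2ac18 (3.90) were highest without the signal. With it, H1f2 (3.78) and H2bu2 (3.76) were highest. Summed levels of the 9 and of the 23 genes were close to each other within each group, with 73.2 ± 7.53 and 77.4 ± 15.7 CPM in Late Vehicle (SD, n = 6).

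**Figure D1:**
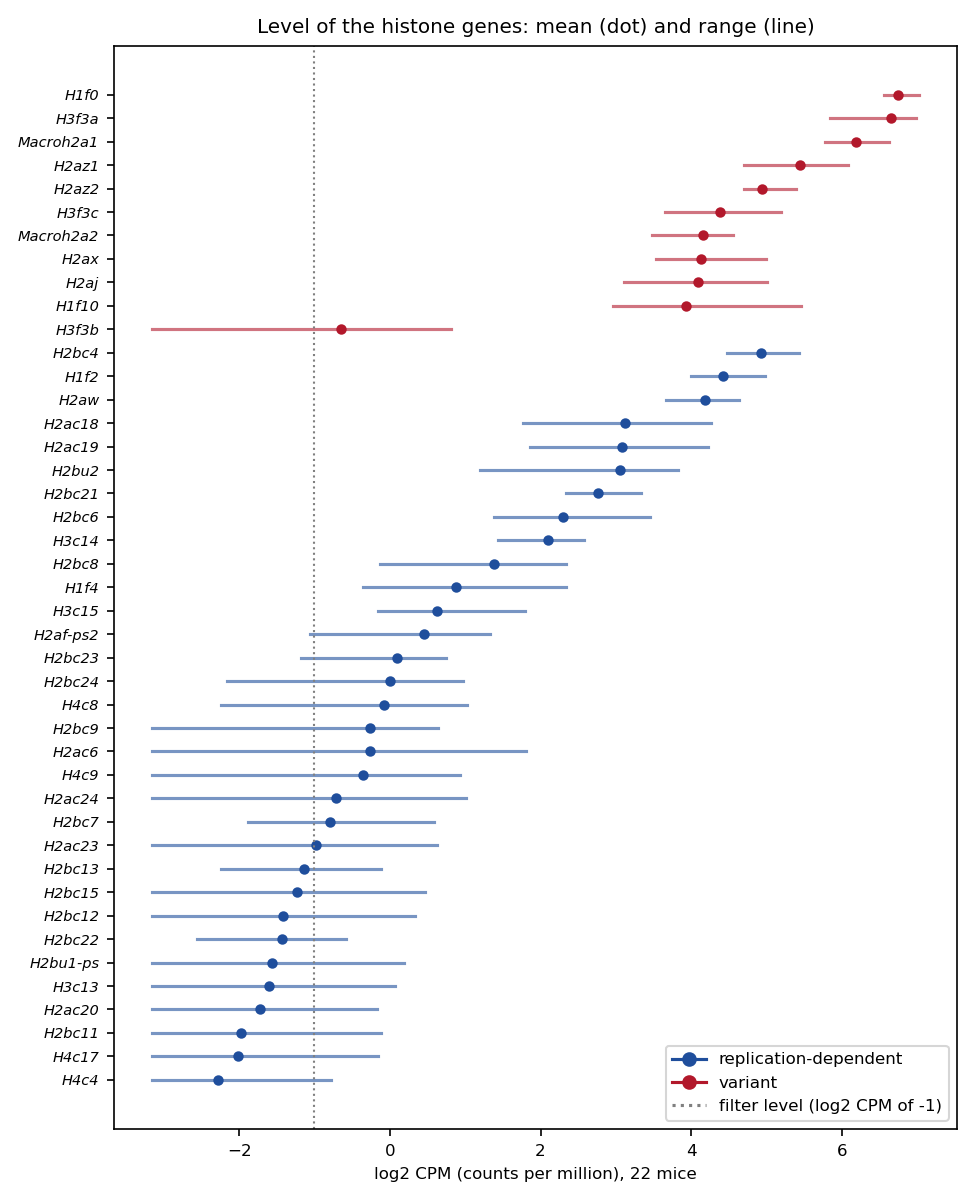
Mean (dot) and lowest to highest level (line) of the 43 histone genes over 22 mice in log2 CPM (horizontal axis), variants in red above replication-dependent genes in blue. The variants other than H3f3b have means between 3.92 and 6.75, while 10 of the 32 replication-dependent genes have a mean of at least 1.

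Variants carried most histone reads. H1f0, the linker histone that accumulates in differentiated cells, had the highest mean at 6.75 log2 CPM, followed by H3f3a (6.65), a gene of the replacement histone H3.3, and Macroh2a1 (6.19), whose H2A form carries a large extra domain. Per kb of the longest transcript, the order was H1f0 (5.71 log2 CPM per kb), the H3.3-like copy H3f3c (5.67), H2az1 (5.35), H3f3a (5.14) and then the replication-dependent H2bc4 (4.71). The ranges of H1f0 and H3f3c overlapped across mice on this scale, and the length counted by the authors is not known for genes whose GENCODE and RefSeq ends differ. Of the H3.3 genes, H3f3b encodes the same protein as H3f3a, yet it had 0 to 22 reads per library against 765 to 2854 for H3f3a. Of its 75-base stretches 4.26% occur in transcripts of other genes, against 9.83% for H3f3a. H3f3b is known as a broadly expressed gene, and why so few reads were assigned to it could not be worked out, so its values may not give its true level.

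Replication-dependent genes were detected over a wide range of levels. H2bc4 stood at 4.92 log2 CPM, the linker histone H1f2 at 4.42 and H2aw at 4.18, while the highest H3 gene, H3c14, was at 2.10 and the highest H4 gene, H4c8, at -0.08. Summed over the 32 genes, the level was 127 ± 27.8 CPM in Early SAFit2, 125 ± 16.9 in Early Vehicle, 123 ± 16.3 in Late SAFit2 and 151 ± 21.6 in Late Vehicle (SD, n = 5, 6, 5 and 6). The 11 variants together reached 432 ± 37.1, 439.5 ± 19.3, 440.4 ± 30.4 and 491 ± 38.7 CPM in the same order. The share of replication-dependent genes in all histone CPM thus had group means between 21.9% and 23.4%, and the groups overlapped.

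**Figure D2:**
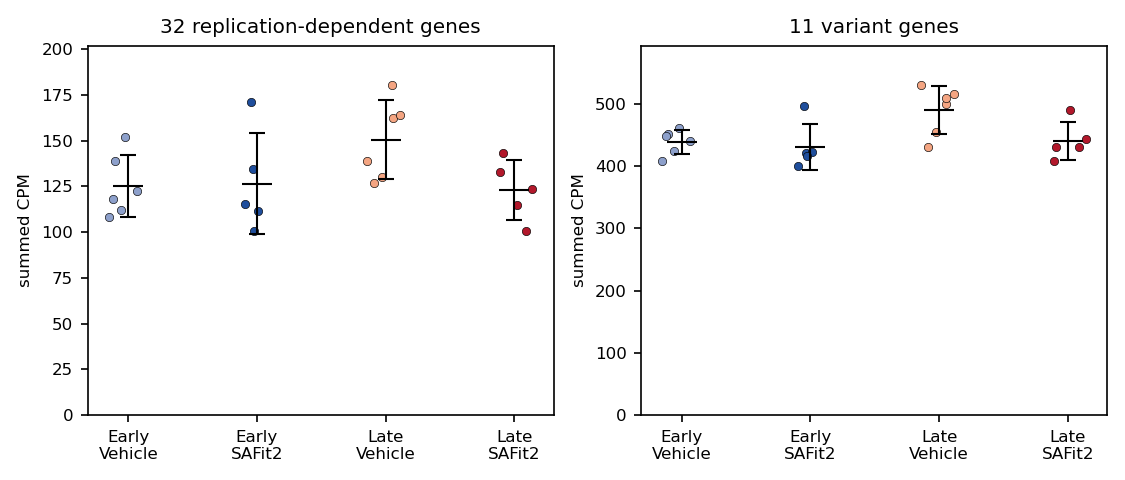
Summed CPM (vertical axis, from 0) of the 32 replication-dependent genes (left) and the 11 variants (right) for each mouse, with group mean and SD as bars. Late Vehicle has the highest mean in both panels, and the points of all 4 groups overlap.

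Near-identical copies limit what single genes can show. Of the 32 replication-dependent genes, 15 share over 50% of their 75-base stretches with transcripts of other genes, against 1 of 11 variants (H3f3c). All stretches of H2ac19 and H3c14 occur elsewhere, and H2ac18 shares 88.9%. How reads that match several places were counted is not given in the sources used here, so these genes cannot be taken as separate measurements. In addition 19 of the 42 members placed in GENCODE overlap another gene, 16 of them a gene on the opposite strand.

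Several members lie head to head, an H2A and an H2B gene starting from a shared stretch of DNA. With starts up to 1500 bases apart, 4 such pairs were found, 236 to 268 bases apart. In each pair the longest H2A transcript holds the stem-loop and the longest H2B transcript does not. H2bc4 had 245 to 847 reads per library and its partner H2ac6 had 0 to 46. H2bc21 had 53 to 177 reads against 0 to 15 for H2ac20. The other two pairs were even, with 1 to 40 reads for H2bc24, 0 to 39 for H2ac24, 4 to 39 for H2bc23 and 0 to 25 for H2ac23. Per kb the H2B gene was higher in the first pairs (4.71 against -1.58 and 1.37 against -0.78 log2 CPM per kb) and lower in the others (-1.14 against 0.34 and -0.92 against 0.07).

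**Figure D3:**
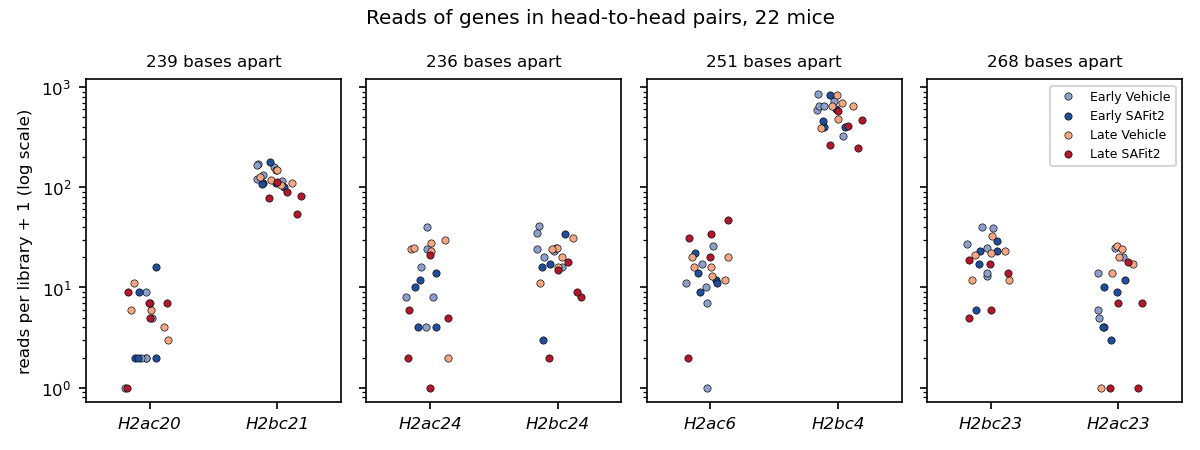
Reads per library plus 1 (vertical axis, log scale) of both genes in each head-to-head pair, a dot for each of the 22 mice coloured by group. H2bc4 (245 to 847 reads) and H2bc21 (53 to 177) lie above their partners H2ac6 and H2ac20 in every mouse, and the genes of the other pairs overlap.

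Promoters of replication-dependent genes shared short motifs. TATAAA, the letters of the core promoter box, was searched on either strand from 250 bases before to 50 bases after the start. It stood in 13 of 28 replication-dependent genes with a RefSeq promoter (46.4%), in 1 of 10 variants and in 9.53% of 12919 genes. CCAAT, the site letters of NF-Y, stood in 25 of the 28 (89.3%), in 6 of the 10 variants and in 42.5% of all. A match at any position in the window was counted and is only a description. In H2bc7, H2bc12, H2bc15 and H2bc22 only the reverse form TTTATA was found. The windows of H2ac6, which also covers the start of H2bc4, of H2ac18 and of H2aj are shown because they are the shared promoter and 2 genes of the late comparison. They are RefSeq sequences on GRCm38.p6, at chr13:23683910-23684209 (minus strand), chr3:96245247-96245546 (plus) and chr6:136807998-136808297 (plus), with both motifs in capitals.
H2ac6: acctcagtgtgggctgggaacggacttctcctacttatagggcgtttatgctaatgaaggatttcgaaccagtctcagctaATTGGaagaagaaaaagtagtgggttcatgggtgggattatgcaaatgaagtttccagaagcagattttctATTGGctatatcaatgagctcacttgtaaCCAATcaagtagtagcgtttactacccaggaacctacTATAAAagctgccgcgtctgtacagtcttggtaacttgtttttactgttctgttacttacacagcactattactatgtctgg
H2ac18: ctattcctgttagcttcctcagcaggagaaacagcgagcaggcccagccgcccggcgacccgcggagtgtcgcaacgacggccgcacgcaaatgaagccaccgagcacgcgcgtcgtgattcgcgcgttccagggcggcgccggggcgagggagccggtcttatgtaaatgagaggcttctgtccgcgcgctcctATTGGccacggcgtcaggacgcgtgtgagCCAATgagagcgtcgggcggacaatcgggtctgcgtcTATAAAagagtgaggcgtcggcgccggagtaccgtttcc
H2aj: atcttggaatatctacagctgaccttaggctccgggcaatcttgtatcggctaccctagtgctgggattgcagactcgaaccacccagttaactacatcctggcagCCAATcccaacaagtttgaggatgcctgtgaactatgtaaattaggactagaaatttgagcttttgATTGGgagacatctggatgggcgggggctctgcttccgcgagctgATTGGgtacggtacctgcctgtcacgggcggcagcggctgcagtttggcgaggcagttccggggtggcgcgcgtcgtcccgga
H2ac6 and H2ac18 hold both motifs, and H2aj holds CCAAT on both strands without TATAAA.

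Late SAFit2 was compared with Late Vehicle to ask what the drug changed shortly before tissue was taken. Of the 40 histone genes tested, 6 passed (adjusted p under 0.05 and at least 1.2-fold, limma), and all 6 were lower in Late SAFit2. They were the variants H2aj, H1f10 and H2az1 and the replication-dependent genes H2ac18, H2ac19 and H3c13. The last met the filter only with its Late Vehicle libraries counted, as given below. Over all 16765 genes tested 12.1% passed, and 6.72% passed as lower, so that the histone share was 15% (6 of 40). The median log2 fold change was -0.26 for replication-dependent genes (11 of 29 above 0), -0.20 for variants (3 of 11 above 0) and -0.05 for all genes. In tissue as a whole, fewer cells of a type and less RNA per cell cannot be told apart.

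**Figure D4:**
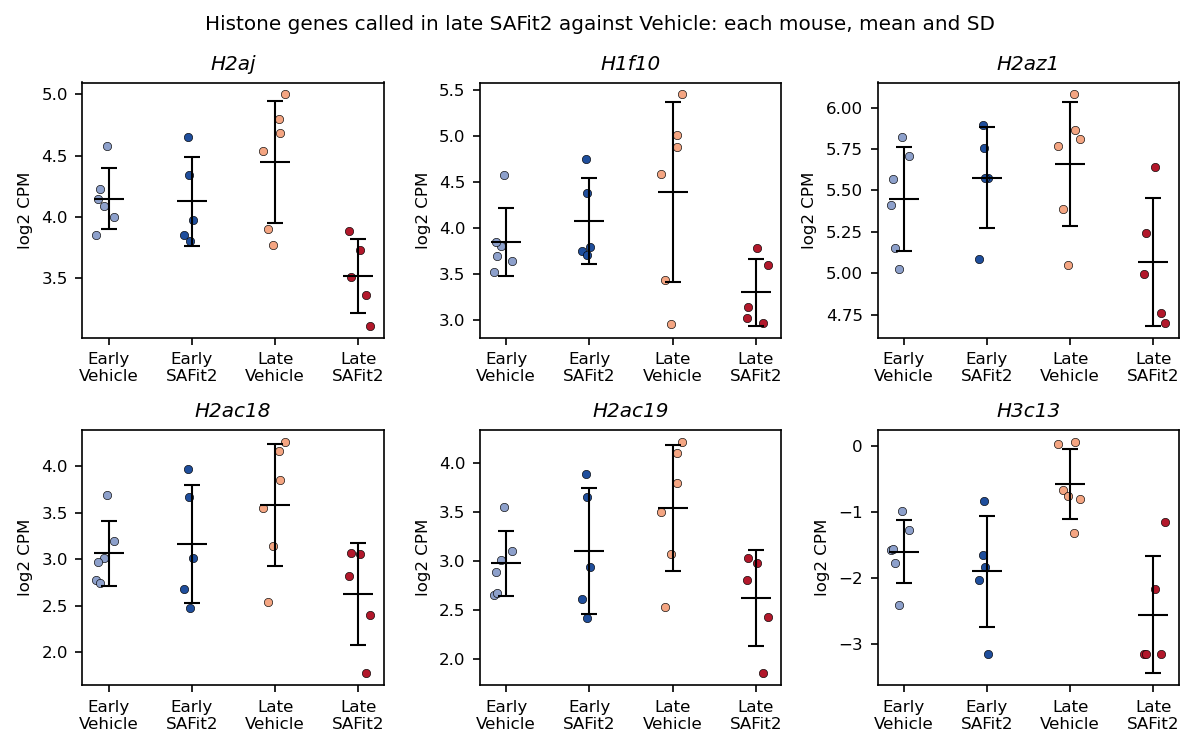
Level of the 6 called histone genes in log2 CPM (vertical axis) for each mouse by group, with mean and SD as bars. Late SAFit2 has the lowest mean in every panel, and the Late SAFit2 and Late Vehicle points overlap in each gene.

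H2aj, an H2A form known to accumulate in senescent cells, read 3.73, 3.88, 3.51, 3.37 and 3.11 log2 CPM in the Late SAFit2 mice, and 3.77, 4.61 and 5.002 in Late Vehicle (lowest, median, highest). The lowest Late Vehicle mouse lay inside the Late SAFit2 range, and the other Late Vehicle mice lay above it. H2aj fell by 0.93 on the log2 scale (SE 0.21, adjusted p = 0.0324 by limma, exact permutation p = 0.013, two-sided, over all splits of the 11 mice). Early SAFit2 and Early Vehicle stood at 4.13 ± 0.36 and 4.15 ± 0.25 (SD, n = 5 and 6).

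H2az1 encodes H2A.Z, the variant found beside the start sites of active genes. Its Late SAFit2 values were 5.64, 4.99, 5.24, 4.76 and 4.70, and Late Vehicle ran from 5.05 through a median of 5.79 to 6.08. The lower 3 of the Late SAFit2 mice were below every Late Vehicle mouse. H2az1 fell by 0.59 (SE 0.19, adjusted p = 0.045 by limma, exact permutation p = 0.0368). Its close relative H2az2 stood at 4.91 ± 0.19 in Late SAFit2 and 4.91 ± 0.09 in Late Vehicle (log2 fold change -0.0017, SE 0.11).

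H1f10, a linker histone with the highest GC content of the members (71.3%), read 3.79, 3.03, 3.15, 2.97 and 3.60 in Late SAFit2. Late Vehicle spread from 2.96 through 4.73 to 5.45, with 2 mice below the highest Late SAFit2 mouse. H1f10 fell by 1.08 (SE 0.33, adjusted p = 0.0399 by limma), with an exact permutation p of 0.0541. The other replacement linker histone, H1f0, was at 6.86 ± 0.15 and 6.75 ± 0.11 in Late SAFit2 and Late Vehicle (log2 fold change 0.10, SE 0.09, adjusted p = 0.415 by limma).

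H2ac18 and H2ac19, near-identical H2A genes of the chromosome 3 cluster, moved as a pair. H2ac18 read 3.06, 2.82, 3.06, 1.77 and 2.40 in Late SAFit2 and 2.54, 3.70 and 4.26 in Late Vehicle. It fell by 0.96 (SE 0.30, adjusted p = 0.0446 by limma, exact permutation p = 0.0346), and H2ac19 fell by 0.92 (SE 0.30, adjusted p = 0.0462, exact permutation p = 0.0325). Both groups overlapped. Because of their shared sequence they cannot be taken as separate observations, and with H2ac19 left out 5 of 39 histone genes passed (12.8%).

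H3c13, an H3 gene of the same cluster, rests on few reads. The Late SAFit2 libraries held 2, 0, 0, 0 and 3 reads, and the Late Vehicle libraries between 5 and 22. Every Late Vehicle library had more reads than any Late SAFit2 library, although after scaling to library size the groups overlapped. The fitted change was -1.99 on the log2 scale (SE 0.49, adjusted p = 0.0324 by limma, exact permutation p = 0.00433), and its size depends on the prior count at 0 reads. H3c13 met the filter of -1 log2 CPM in 5 libraries only with its Late Vehicle libraries counted. Those ran up to 0.07, while the highest Late SAFit2 library stood at -1.15. Its p-values therefore rest in part on that selection and are given as a description. Its neighbours H3c14 (log2 fold change 0.31, SE 0.20) and H3c15 (-0.37, SE 0.34) did not pass.

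Among the other variants, H3f3c stood at 4.83 ± 0.33 in Late SAFit2 and 4.25 ± 0.47 in Late Vehicle (log2 fold change 0.58, SE 0.22, adjusted p = 0.0694 by limma). Macroh2a1, whose variant marks silenced chromatin, was at 6.07 ± 0.20 against 6.36 ± 0.13 (-0.28, SE 0.11, adjusted p = 0.0867). H2ax, which is phosphorylated at broken DNA, was at 3.95 ± 0.48 against 4.42 ± 0.48 (-0.47, SE 0.21, adjusted p = 0.123). Macroh2a2, H3f3a and H3f3b had log2 fold changes of -0.20, -0.03 and 0.64 with adjusted p of 0.327, 0.896 and 0.404. Of the more abundant replication-dependent genes, H2bc4, H1f2 and H2aw had -0.26, -0.17 and -0.11 and H2bu2 had -0.42, with adjusted p of at least 0.251. H1f4, H4c8 and H4c9 had 0.52, -0.61 and -1.34, with adjusted p of at least 0.121. No member had groups without overlap in this comparison, where 1.71% of all genes did.

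The late values moved with the base composition of the genes. The slope of each library's values on GC content was between -0.47 and -0.05 log2 units per 10 points of GC in the 5 Late SAFit2 libraries. In Late Vehicle it was between 0.26 and 0.49 in 4 libraries and negative in mice 2 and 6 (-0.16 and -0.32). These 2 were also the lowest Late Vehicle mice for H2aj, H1f10, H2az1, H2ac18 and H2ac19. Of the 13 tested histone genes with a GC content from 60 to 72%, 4 passed with a median log2 fold change of -0.92, beside 34.0% of 739 genes in that band (median -0.64). Of the 13 from 40 to 50%, 1 passed, beside 8.41% of 7380 genes.

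**Figure D5:**
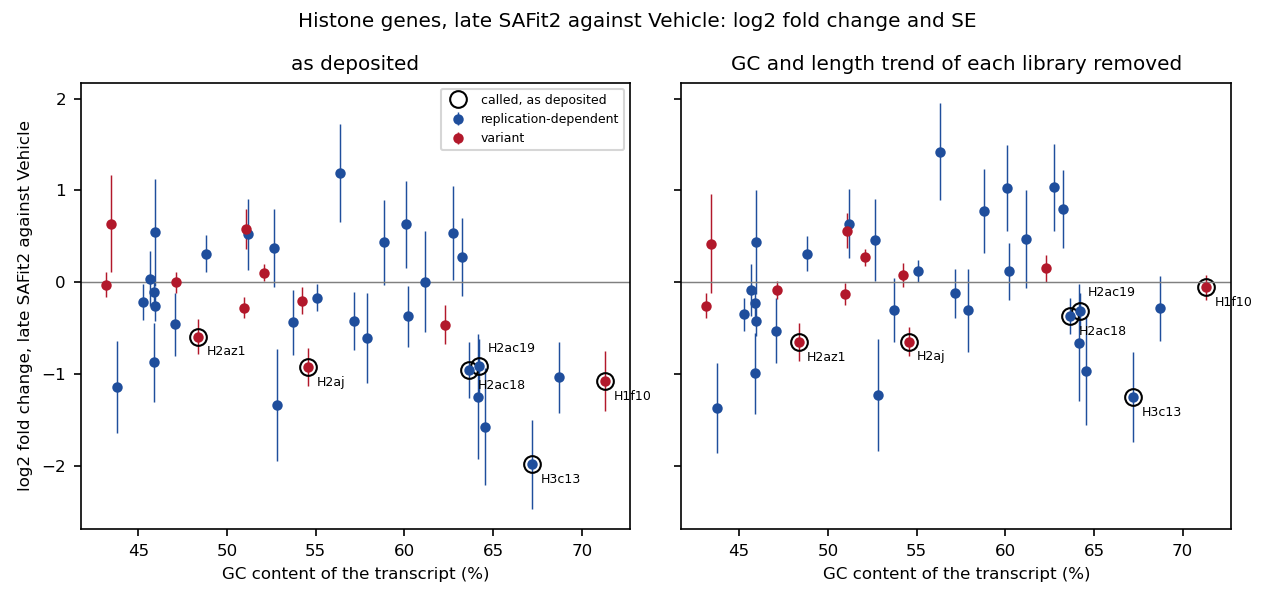
Log2 fold change with SE of late SAFit2 against Vehicle (vertical axis) for the 40 tested histone genes by transcript GC content in percent (horizontal axis), as deposited (left) and with each library's GC and length trend removed (right). H1f10 moves from -1.08 to -0.06 between the panels, while H2aj (-0.93 and -0.65) and H2az1 (-0.59 and -0.66) stay below 0.

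With each library's trend on GC content and length removed, 0 of 40 histone genes and 0 of all genes passed (limma), with 11 of the 40 members (27.5%) at an unadjusted p under 0.05, beside 16.04% of the 16229 genes in that fit. H1f10 then had a log2 fold change of -0.06 (adjusted p = 0.878) and H2ac18 of -0.37 (adjusted p = 0.363). H2aj kept -0.65 (adjusted p = 0.116, exact permutation p = 0.013) and H2az1 -0.66 (adjusted p = 0.143, exact permutation p = 0.039). H3c13 was at -1.26 (adjusted p = 0.206). The count of 6 was 2 with limma voom on recovered reads, 1 without a variance trend, 0 with only the 11 mice of the 2 groups and 11 with library quality weights. It also fell to 0 when any of 7 mice was left out: Late SAFit2 mice 2, 4 and 5 or Late Vehicle mice 1, 3, 4 and 5.

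Early SAFit2 was compared with Early Vehicle to ask what remained weeks after the last dose. No histone gene passed (0 of 40, limma and limma voom), none had an unadjusted p under 0.05, and 0% of all 16765 genes passed (416 with an unadjusted p under 0.05). The median log2 fold change was 0.02 for replication-dependent genes (15 of 29 above 0) and -0.02 for variants (4 of 11 above 0). No member had groups without overlap, against 0.352% of all genes. The lowest p belonged to Macroh2a1, at 6.03 ± 0.20 in Early SAFit2 and 6.25 ± 0.20 in Early Vehicle (log2 fold change -0.22, SE 0.11, exact permutation p = 0.106). H3f3c had -0.36 (SE 0.22, exact permutation p = 0.143) and H2bu2 0.47 (SE 0.31, exact permutation p = 0.31).

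The mean of the early and late effects was read at an unadjusted p under 0.05, the level the paper used for its main treatment effect. After adjustment no gene passed. At the unadjusted level 6 of 40 histone genes passed, 5 of them lower, beside 13.2% of all genes (7.18% as lower). H2aj had -0.48 (SE 0.15), Macroh2a1 -0.25 (SE 0.08) and H3c13 -1.14 (SE 0.34), each with an adjusted p of 0.325 by limma. These 3 passed the unadjusted level in all 22 fits that left out a mouse. Markers of ependymal cells were also lower at that level, as given with the other cell types, and their part was not tested. The head-to-head partners H2bc24 and H2ac24 had -0.73 (SE 0.30) and -1.05 (SE 0.45), and the pseudogene H2bu1-ps, with 0 to 19 reads, had 0.80 (SE 0.38). H2bc24 kept its call in 20 of the 22 fits, H2ac24 in 17 and H2bu1-ps in 10. The H2bu1-ps call was also lost with the replicate block, with a pseudocount of 2 and with Bc1 and mitochondrial genes left out of library sizes. H2ac24 was lost with limma voom, with quantile normalization and with the GC trend removed, and H2bc24 with quantile normalization. H2ac24 and H2bc24 share 92.6% and 87.1% of their 75-base stretches with other genes. H3c13 was lost with the replicate block and GC trend removal together, and it met the filter only with Late Vehicle counted. H2bu1-ps met the filter only with Late SAFit2 counted, so its call rests in part on that selection and is given as a description. With the GC trend removed, 6 of the 40 members (15%) had an unadjusted p under 0.05, beside 8.38% of all genes in that fit. H2ac24 was not among them.

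The early and late effects were then compared directly. Their difference passed for 0 of 40 histone genes and 0% of all genes (limma and limma voom for the members), while 8 of the 40 members (20%) had an unadjusted p under 0.05, below the 24.9% of all genes. Among these 8 members, for 7 the early effect was above the late one, by 0.90 for H2aj (SE 0.30), 0.73 for H2az1 (SE 0.27) and 1.31 for H1f10 (SE 0.46). For H3f3c it was below, by -0.94 (SE 0.31). The adjusted p was 0.12 at the lowest. With the GC content and length trend removed, 4 of the 40 members (10%) had an unadjusted p under 0.05, beside 12.1% of all genes in that fit. The variant median of the difference then moved from 0.056 to -0.069.

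Between the Vehicle groups, which differ in the days of gel injection and in batch, 1 of 40 histone genes passed, beside 9.11% of all genes. H1f2, a linker histone gene, was at 4.68 ± 0.24 in Late Vehicle and 4.23 ± 0.14 in Early Vehicle (log2 fold change 0.45, SE 0.14, adjusted p = 0.0414 by limma, exact permutation p = 0.00649). This call was lost with the replicate block, with Bc1 and mitochondrial genes left out of library sizes, and without any of 11 mice (Early Vehicle 2 to 6, Late Vehicle 1 to 5 or Early SAFit2 4). The medians were 0.36 for replication-dependent genes, 0.19 for variants and 0.01 for all genes. Without Early Vehicle mouse 3, 4 or 5 or Late Vehicle mouse 5 the replication-dependent median was 0.19, 0.23, 0.25 and 0.22.

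Genes that handle histone mRNA and protein were read beside the members. Of 18 genes for histone mRNA 3′ processing and decay, 2 passed in the late comparison (11.1%, beside 12.1% of all genes), both higher. Eri1, the exonuclease that trims the histone mRNA end, rose by 0.50 (SE 0.14, adjusted p = 0.0341 by limma), and Ncbp2, a cap-binding subunit, rose by 0.41 (SE 0.12, adjusted p = 0.0382) with no overlap between groups. Slbp, the protein that binds the stem-loop, had 0.32 (SE 0.14, adjusted p = 0.111), and Npat, the activator of histone gene transcription, had 0.37 (SE 0.13, adjusted p = 0.0554). Of 22 histone chaperones, 4 were higher and 1 lower (22.7% in all). Ubn2 rose by 0.83 (SE 0.20), Npm1 by 0.64 (SE 0.20), Nap1l1 by 0.54 (SE 0.16) and Set by 0.43 (SE 0.14), while Cabin1, a subunit of the HIRA complex with Ubn2, changed by -0.66 (SE 0.21), with adjusted p between 0.0324 and 0.046. The 6 genes that rose have a GC content between 39.8 and 46.3%, Cabin1 has 56.6%, and none passed with the GC trend removed. None of 22 proliferation and S phase genes passed (limma), with 6 at an unadjusted p under 0.05 (27.3%, beside 34.5% of all genes). In the early comparison no gene of these lists passed (limma), and 2 had an unadjusted p under 0.05, both on the S phase list.

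The tissue held neuronal and oligodendrocyte markers in every library. In the late comparison 5 of 44 cell type markers passed (11.4%), namely Slc32a1 (neurons), Olig1 (oligodendrocyte precursors), Cldn5 (endothelium) and Foxj1 (ependyma), all lower and with a GC content of 60.5 to 61.9%, and Tnnt3 (skeletal muscle), which was higher. The 4 muscle genes summed to between 1.61 and 183 CPM in Late SAFit2 and between 1.39 and 3.28 in Late Vehicle, with Ckm and Myh4 at 0 reads in some libraries. Of the 6 neuronal markers, 4 had a log2 fold change above 0 (median 0.15), among them Snap25 (0.37, adjusted p = 0.0561 by limma) and Slc17a6 (0.34, adjusted p = 0.0743). The other 2, Rbfox3 (-0.23) and Slc32a1 (-0.55), were below 0. With the GC trend removed, Snap25 (38.7% GC) had -0.02 and Slc17a6 (42.9% GC) had 0.11. In the mean effect of the drug 14 of 44 markers (31.8%) had an unadjusted p under 0.05, beside 13.2% of all genes. Gfap, Aldh1l1, C1qa and Cldn5 were lower, and Snap25, Slc17a6, Acta1, Myh4 and S100a9 were higher. Markers of a list did not all move alike. Aqp4 (0.13), Gja1 (0.11), P2ry12 (0.11) and Pecam1 (0.16) were above 0, and Rbfox3 (-0.12) and Slc32a1 (-0.14) below. With the GC trend removed, Gfap, Aldh1l1, C1qa and Cldn5 had -0.16, -0.09, -0.07 and -0.07. Snap25 and Slc17a6 then had 0.05 and 0.10, and Acta1, Myh4 and S100a9 had 1.15, 2.00 and 1.02. As deposited, all 5 ependymal markers (Ccdc153, Tmem212, Rsph1, Dnah5 and Foxj1) were lower at an unadjusted p under 0.05, with log2 fold changes from -2.93 to -0.38. With the GC trend removed Foxj1 had -0.09, and the other ependymal markers lay between -2.86 and -0.67. In the early comparison 4 of the 5, all but Foxj1, had an unadjusted p under 0.05, and the list summed to 16.2 to 24.7 CPM in Early SAFit2 and 21.4 to 42.3 in Early Vehicle. The part of any cell type in the histone values was not tested. Of 14 RNAs that lack a poly(A) tail, 1 was in the table, Rn7sk, at 0 to 1.65 CPM.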

How the data were processed

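RNA of L4 to L6 spinal cord (the dorsal quadrant on the injured side, per the paper) from 22 mice was sequenced by the authors from directional libraries of isolated mRNA. Per the labels and the methods, reads were trimmed (Trimmomatic), aligned to mm10 (HISAT2), counted per gene with featureCounts and scaled by TMM in edgeR. How the mRNA was isolated, the annotation, and the treatment of strand and of reads with several matches are not given in the sources used here. The deposited values are log2 CPM, with a floor of -3.15 at 0 reads. Reads recovered from their steps were whole in 100.0% of the values checked, those up to 1000 reads (tolerance 0.02), and depth was 11352989 to 24433349 reads on genes, so genes near the floor carry large counting error. limma 3.58.1 (R 4.3.3) was fitted with a variance trend on all 22 mice with 1 mean per group, over the 16765 genes that reached -1 in 5 or more libraries, with Benjamini-Hochberg adjustment over all. A call needed an adjusted p under 0.05 and a 1.2-fold change (unadjusted p under 0.05 for the mean effect). The p-values measure the spread between mice labelled as separate samples.

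Transcript GC content and length came from GENCODE M21 for 96.6% of genes and all 43 members. Named genes were the variants tested, the 2 highest replication-dependent genes of each histone class, members called in any comparison or with the 3 lowest p in the late and early ones, Slbp, Eri1, Npat and called genes of the pathway lists. Members and lists were chosen with earlier results of these data known. Same-numbered mice correlated between -0.24 and 0.32, so the numbers were not taken as pairs. Alternatives changed the filter, prior, scaling, weights, tool, samples, GC correction and replicate block. Leaving Bc1 and mitochondrial genes out of library sizes, and fitting only genes with a GC value, were added after seeing the data.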

Additional observations from a re-analysis of the deposited data

Results flagged for a closer look

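Within the groups of 5 or 6 mice, 10 of 104 sets of values (26 named genes in 4 groups) had an end value set off from the nearest other by more than Dixon's 95% limit, where chance gives about 1 in 20. Early Vehicle mouse 4 was lowest for H3f3a (5.85 log2 CPM, next 6.60) and for H2bu2 (1.19, next 2.94). Late Vehicle mouse 6 was lowest for H4c8 (-0.96, next 0.35) and H2ac24 (-2.38, next 0.34). Early SAFit2 mice were set off for Macroh2a2 (mouse 1, 3.48, next 4.09), H1f2 (mouse 2, 4.74, next 4.21) and H1f4 (mouse 5, -0.36, next 1.01). Early Vehicle mouse 1 was highest for H1f10 (4.57, next 3.85), Early Vehicle mouse 5 lowest for H4c9 (-3.15, at 0 reads, next -0.56), and Late SAFit2 mouse 4 lowest for H4c8 (-2.23, next -0.0006). None of these values was left out of the results above.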

How the results depend on the processing

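The 6 histone genes called in the late comparison became 1 without a variance trend, 2 with limma voom on recovered reads, 3 with quantile normalization, 0 with only the 11 mice of the 2 groups and 0 with the GC content and length trend removed, with or without the replicate block. They became 11 with library quality weights (10 lower) and 14 at an unadjusted p. Leaving out single mice gave 0 to 10 late calls (0 without Late SAFit2 mouse 2, 4 or 5 or Late Vehicle mouse 1, 3, 4 or 5; 3 without Early SAFit2 mouse 4 or Early Vehicle mouse 2, 3 or 6; 10 without Late Vehicle mouse 6), 0 to 4 for the difference of effects (4 without Late Vehicle mouse 6), 0 to 3 between Vehicle groups and 4 to 10 for the mean effect. The mean effect gave 2 with the stricter filter and 17 with quality weights, and the difference of effects 7 with weights and 8 at an unadjusted p. Between Vehicle groups, the 1 call became 0 with the replicate block, 0 with library sizes without Bc1 and mitochondrial genes, 11 with weights and 3 at an unadjusted p. The late median of variants moved to -0.057 with the GC trend removed, the variant median of the difference to 0.24 with weights, and the replication-dependent median between Vehicle groups to 0.13 with a pseudocount of 2. The replicate block gave 8 late calls, 0 early and 8 for the mean effect, and changed the side of the threshold for no count but the Vehicle one. Early calls stayed at 0 in every alternative run. No called named gene changed sign. Where no value above shows a cause, the cause was not tested.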
